A study of Mus musculus with 18 samples.

Results

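The genes described here are the 44 mouse genes for collagen chains, out of 21288 genes in the count table. They are the protein-coding genes whose Ensembl identifier carries a symbol made of Col, a type number, the letter a and a chain number. By the class of collagen they build, 11 are fibrillar, 6 are basement membrane (type IV), 9 belong to the fibril-associated group called FACIT, 6 are beaded filament (type VI), 3 form short-chain networks, 1 forms anchoring fibrils, 4 span the cell membrane, 2 are multiplexins and 2 are of other types. The RNA came from dorsal root ganglia, which lie next to the spinal cord and hold the cell bodies of sensory neurons with their glia, vessels and sheaths. The mice were wild type (WT) or knockout for importin alpha3 (KO). Importin alpha3, the product of Kpna4, helps carry proteins from the cytoplasm into the nucleus. The animals were naive or had undergone spared nerve injury (SNI), an operation that cuts part of the sciatic nerve and spares one branch, used to study neuropathic pain, 7 d or 2.5 months before. Naive mice gave 4 libraries of each genotype and mice 7 d after SNI gave 3 of each. At 2.5 months after SNI there were 3 KO libraries but a single WT library, 18 libraries in all. The labels name no strain or age, no group with surgery without nerve injury, and no ganglion level, and do not say whether the knockout is confined to a cell type or whether ganglia were pooled. Time after injury cannot be told apart from surgery, age or anything else that came with it. Nothing in the labels says that libraries came from separate animals, so a p-value here reflects the variation among the libraries, which may be technical.

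Collagens are secreted or membrane-bound proteins built from chains that wind around each other into a helix. Fibrillar collagens assemble into the cable-like fibrils of connective tissue, type IV chains build the sheet of the basement membrane around blood vessels, Schwann cells and satellite glia, and FACIT collagens coat the surface of fibrils. In a ganglion, fibrillar collagens are known as products mainly of fibroblasts of the sheaths and of the tissue between the nerve fibres, while type IV and type V chains are also made by Schwann cells and vessel cells. Where a collagen type combines chains of different genes in a helix, the balance between these partner genes is of interest as well as the level of each.

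Total counts ran from 12565448 to 21585680 per library, and naive libraries were deeper than 7 d libraries. Kpna4 stood at 89.6 to 136 CPM (counts scaled to a common library size) in the 8 WT libraries and at 1.01 to 5.63 CPM in the 10 KO libraries, as labelled. The summed level of 12 sensory neuron markers was 12792 to 24607 CPM, lowest in the naive KO library ko_40, and that of 12 Schwann cell markers was 3366 to 12225 CPM. Libraries differed in how counts related to gene length. The slope of log2 level on exon length, per 10-fold in length, was -0.687 in the 7 d KO library ko_422_7d. It ran from -0.553 to -0.291 in the 2.5-month libraries and from -0.063 to 0.245 in the other 13 libraries. This dependence on length touches the results at 2.5 months below.

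Collagen genes of several classes were expressed in naive ganglia, and the 44 genes summed to 785 to 1533 CPM in naive WT. Levels of different genes are compared here per kilobase (kb) of merged exon length. On that scale Col1a1, a chain of type I, the main collagen of connective tissue, was highest at 18.1 ± 10.5 CPM per kb (SD, n = 4 naive WT). Col5a3, the alpha3 chain of type V, followed at 16.1 ± 1.58, Col1a2, the partner chain of Col1a1, at 14.6 ± 6.22, Col28a1, a collagen known from peripheral nerve and ganglia, at 14.1 ± 1.06, and Col4a1 at 13.7 ± 3.39 CPM per kb. These 5 means lay within 1 SD of Col1a1 and their order is not fixed by these data. It also depends on the length used: over the principal transcript, which for Col1a2 is 5348 of 12426 merged exon bases, Col1a2 ranked first and Col5a3 ranked 3. Next came Col4a2 at 9.72 ± 2.19, the FACIT collagen Col16a1 at 6.98 ± 0.330, the membrane-spanning Col23a1 at 6.93 ± 2.42, the multiplexin Col15a1 at 6.93 ± 1.64 and Col3a1 at 6.85 ± 3.07 CPM per kb. The most abundant type VI chain was Col6a1 at 4.78 ± 2.19 and the most abundant short-chain collagen Col8a1 at 1.03 ± 0.303 CPM per kb.

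By class, fibrillar genes made up 38.9 to 48.6% of summed collagen CPM per kb in naive WT, basement membrane genes 14.2 to 17.9%, FACIT genes 9.19 to 11.5% and multiplexins 6.22 to 8.22%. Among type IV genes, Col4a1 and Col4a2, the chains of the common basement membrane network, stood far above Col4a3, Col4a4 and Col4a5, whose group means in naive WT were 0.190, 0.317 and 0.310 CPM per kb. The CPM ratio of Col4a1 to Col4a2 stayed within 1.30 and 1.78 over all 18 libraries. Of the cartilage collagens, Col2a1 stood at 0.923 to 3.64 CPM, Col9a1 at 0 to 0.150 CPM and Col10a1 at 0.797 to 1.33 CPM in naive WT. The filter on low counts kept 41 of the 44 genes for testing. Col4a6, with at most 10 counts in a library, Col6a6 with at most 11 and Col17a1 with at most 8 were not tested. Exons of Col4a1 and Col4a2 overlap each other by 22 bases, those of Col9a3 overlap Tcfl5 by 234, those of Col4a3 overlap C430014B12Rik by 563 and those of Col10a1 overlap Nt5dc1 by 18, each on opposite strands. The strand setting of the counting is not given in the sources used here, so these 5 counts are uncertain. So are those of Col5a1, which overlaps a pair of noncoding transcripts on the opposite strand, and of Col20a1, which shares 79 exon bases with a transcript on its own strand. These partners are in the count table. With transcripts absent from it, Col6a4 shares 162 and 127 exon bases on the opposite strand, and Col3a1 141 and Col7a1 36 on their own strand. Col4a2, Col6a6, Col15a1 and Col22a1 also overlap such transcripts on the opposite strand. Whether the counting used these transcripts is not given.

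Naive libraries of the same genotype differed widely in collagen level, and mostly in the same direction for many genes. Values within a group are listed here in the order of library numbers: wt_28, wt_44, wt_48 and wt_67 in naive WT, ko_35, ko_39, ko_40 and ko_95 in naive KO, wt_409_7d, wt_410_7d and wt_416_7d, then ko_420__7d, ko_422_7d and ko_426_7d, and at 2.5 months wt_376_2_5_m, then ko_362_2_5_m, ko_367_2_5_m and ko_378_2_5_m. Col1a1 stood at 203, 120.3, 33.5 and 118 CPM in naive WT, 69.9, 83.6, 188 and 129.7 in naive KO, 74.9, 49.2 and 163 at 7 d in WT, 91.3, 120.0 and 91.4 at 7 d in KO, 91.6 in the lone WT library at 2.5 months and 105, 130.1 and 122 at 2.5 months in KO. The WT library wt_28 and the KO library ko_40 were high and wt_48 was low, so that naive WT alone spanned 6.04-fold. Among naive WT libraries wt_28 was the highest in 26 and wt_48 the lowest in 29 of the 41 tested collagens, and among naive KO libraries ko_40 was the highest in 30 and ko_35 the lowest in 26. These ranks were not counted over all genes. The summed Schwann cell markers and other basement membrane genes had the same highest and lowest naive libraries, while satellite glia markers in naive WT did not. Col3a1 stood at 93.6, 81.7, 24.7 and 68.9 CPM in naive WT, 42.8, 56.5, 98.4 and 69.3 in naive KO, 37.4, 34.8 and 90.3 at 7 d in WT, 52.2, 64.1 and 54.3 at 7 d in KO, 42.5 in the lone WT library at 2.5 months and 50.02, 73.5 and 59.9 at 2.5 months in KO. Col3a1, the chain of type III that accompanies type I in soft tissue, had the same high and low libraries in naive WT. Col4a1 stood at 138, 92.0, 80.2 and 98.2 CPM in naive WT, 88.1, 100.3, 168 and 118 in naive KO, 67.6, 57.3 and 121 at 7 d in WT, 123, 55.2 and 145 at 7 d in KO, 64.6 in the lone WT library at 2.5 months and 80.7, 92.5 and 67.8 at 2.5 months in KO. For Col4a1 too ko_40 and wt_28 were the highest naive libraries, and naive and 7 d ranges overlapped in both genotypes. The summed level of 15 fibroblast markers was 1787, 2371, 1042 and 1201 CPM in naive WT and 914, 1235, 2800.0 and 1781 CPM in naive KO. It was lowest in wt_48 and ko_35 and highest in ko_40, as many collagens were, but in naive WT it was highest in wt_44, and wt_67 was close to wt_48; its part in the spread was not tested. In bulk tissue, fewer cells of a type and less RNA per cell cannot be told apart.

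Some collagens varied far less. The coefficient of variation was 58.2% over naive WT and 45.3% over naive KO for Col1a1, and 44.8% and 35.5% for Col3a1. It was 4.73% and 8.89% for Col16a1, 7.32% and 13.1% for Col11a1, and 9.83% and 10.1% for Col5a3, low in both genotypes. For Col28a1 it was 7.57% in naive WT but 27.1% in naive KO, and for Col24a1 9.20% and 29.1%. Col5a3 and Col1a1 had similar means per kb in naive WT but differed in spread. Whether the spread went with abundance over all collagens was not tested. Col28a1 stood at 69.4, 74.7, 62.0 and 69.8 CPM in naive WT, 57.9, 79.4, 105 and 64.4 in naive KO, 50.7, 52.2 and 91.7 at 7 d in WT, 72.9, 25.7 and 83.6 at 7 d in KO, 37.3 in the lone WT library at 2.5 months and 52.2, 45.5 and 43.5 at 2.5 months in KO. Naive Col28a1 levels lay within a narrow band in WT, and ko_422_7d was the lowest of all libraries.

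The comparison of KO with WT asks whether loss of importin alpha3 alters collagen expression. No collagen was called in naive ganglia at an adjusted p under 0.05 (edgeR's quasi-likelihood test with Benjamini-Hochberg adjustment over 19010 genes), where 0.0263% of all genes were called. The unadjusted p was under 0.05 for 1 of 41 collagens, Col2a1, beside 2.71% of all genes, and DESeq2 called 0 collagens. Col1a1 differed by -0.01 ± 0.44 on the log2 scale (SE), Col3a1 by -0.01 ± 0.36 and Col4a1 by 0.21 ± 0.28 in naive KO against naive WT, all within 1 SE of 0. At 7 d 0 collagens were called by edgeR and 0 by DESeq2, where edgeR called 0.00526% of all genes. Beside 8.44% of all genes, 3 of 41 collagens had an unadjusted p under 0.05. These were Col5a3 at 0.79 ± 0.22 (adjusted p = 0.484), its partner chain Col5a2 at 0.70 ± 0.28 (adjusted p = 0.577) and Col11a1, a chain of type XI that starts and shapes thin fibrils, at -0.64 ± 0.26 (adjusted p = 0.571).

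The genotype difference of Col5a3 at 7 d turned on the WT library wt_416_7d. Col5a3 was 455 CPM there, inside the KO range of 405 to 635 CPM, and 220.2 and 242 CPM in the other WT libraries, below it. Without wt_416_7d the difference was 1.19 ± 0.18 (adjusted p = 0.0330) and the mean difference over naive and 7 d was 0.70 ± 0.11 (adjusted p = 0.0211), against 0.50 ± 0.15 (adjusted p = 0.444) with it. The library wt_416_7d was the highest of the 3 WT libraries in 32 of 41 collagens, a rank not counted over all genes. Its fibroblast marker sum was 2953 CPM against 1702 and 1216, and its macrophage marker sum 377 against 212 and 170.2 CPM. The part of these cell types in the difference was not tested. Averaged over naive and 7 d, 0 collagens were called by either tool (edgeR background 0.0421%). Beside 7.25% of all genes, 4 of 41 collagens had an unadjusted p under 0.05, namely Col5a3, Col2a1 at 0.63 ± 0.30, Col22a1 at 0.78 ± 0.36 and Col25a1 at -0.39 ± 0.16. The interaction, which asks whether the change at 7 d differs between genotypes, called 0 collagens by either tool (background 0.0105%). Its unadjusted p was under 0.05 for Col7a1 alone, at 0.96 ± 0.33 (adjusted p = 0.948), beside 3.7% of all genes. The interaction estimate of Col5a3 was 0.58 ± 0.29 (adjusted p = 0.948).

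At 7 d after nerve injury, the clearest change among collagens was a rise of Col5a3. Col5a3 stood at 125, 110.5, 102 and 102 CPM in naive WT, 110.4, 126, 141 and 128 in naive KO, 220.2, 242 and 455 at 7 d in WT, 635, 405 and 544 at 7 d in KO, 100.5 in the lone WT library at 2.5 months and 134, 157 and 114 at 2.5 months in KO. Every 7 d library lay above every naive library of both genotypes, and the 2.5-month libraries lay back within or close to the naive range. Col5a3 rose by 1.48 ± 0.21 on the log2 scale in WT (SE, adjusted p = 0.000537), by 2.06 ± 0.21 in KO (adjusted p = 1.42e-05) and by 1.77 ± 0.15 over both genotypes (adjusted p = 4.12e-07), or 3.41-fold. It stayed called in all 26 alternative analyses of these comparisons. Col5a3 (ENSMUSG00000004098) lies on chromosome 9, 20770050 to 20815067, minus strand (GRCm38). Type V collagen is known to be built into type I fibrils and to limit their width, and in rat peripheral nerve the alpha3 chain is known as a product of Schwann cells.

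The partner chains of type V did not pass the test at 7 d. Col5a1 stood at 37.1, 25.3, 14.2 and 22.3 CPM in naive WT, 17.9, 23.9, 36.4 and 41.4 in naive KO, 13.5, 12.8 and 36.6 at 7 d in WT, 26.6, 15.2 and 35.3 at 7 d in KO, 17.4 in the lone WT library at 2.5 months and 27.7, 30.6 and 24.4 at 2.5 months in KO. The 7 d and naive ranges of Col5a1 overlapped in both genotypes. Col5a2 stood at 33.2, 24.8, 20.8 and 24.4 CPM in naive WT, 21.0, 23.2, 32.8 and 27.8 in naive KO, 21.8, 15.9 and 45.2 at 7 d in WT, 47.1, 41.0 and 46.3 at 7 d in KO, 17.0 in the lone WT library at 2.5 months and 22.5, 33.6 and 27.9 at 2.5 months in KO. Col5a2 was higher in all 3 KO libraries at 7 d than in any naive KO library, at 0.78 ± 0.26 (adjusted p = 0.0585), while in WT its difference was 0.10 ± 0.27 (adjusted p = 0.902). DESeq2 called Col5a2 in KO, at 0.80 ± 0.28 (adjusted p = 0.0273). So did edgeR without ko_40 (adjusted p = 0.0450), without wt_410_7d (0.0297), without wt_416_7d (0.0107) or without wt_376_2_5_m (0.0476). In KO edgeR also called it with the compared groups alone (0.0285), with gene-length correction (0.0237) or with length and GC correction (0.0221). Over both genotypes edgeR called it without wt_410_7d, at 0.58 ± 0.17 (adjusted p = 0.0227). The ratio of Col5a3 to Col5a1 in CPM, not corrected for length, was 3.35 to 7.17 in naive WT and 3.09 to 6.17 in naive KO, 12.4 to 18.9 at 7 d in WT and 15.4 to 26.6 at 7 d in KO. At 2.5 months it was 4.67 to 5.14 in KO and 5.78 in the lone WT library. The ratio was thus higher in all 6 libraries at 7 d than in any other library.

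**Figure D1:**
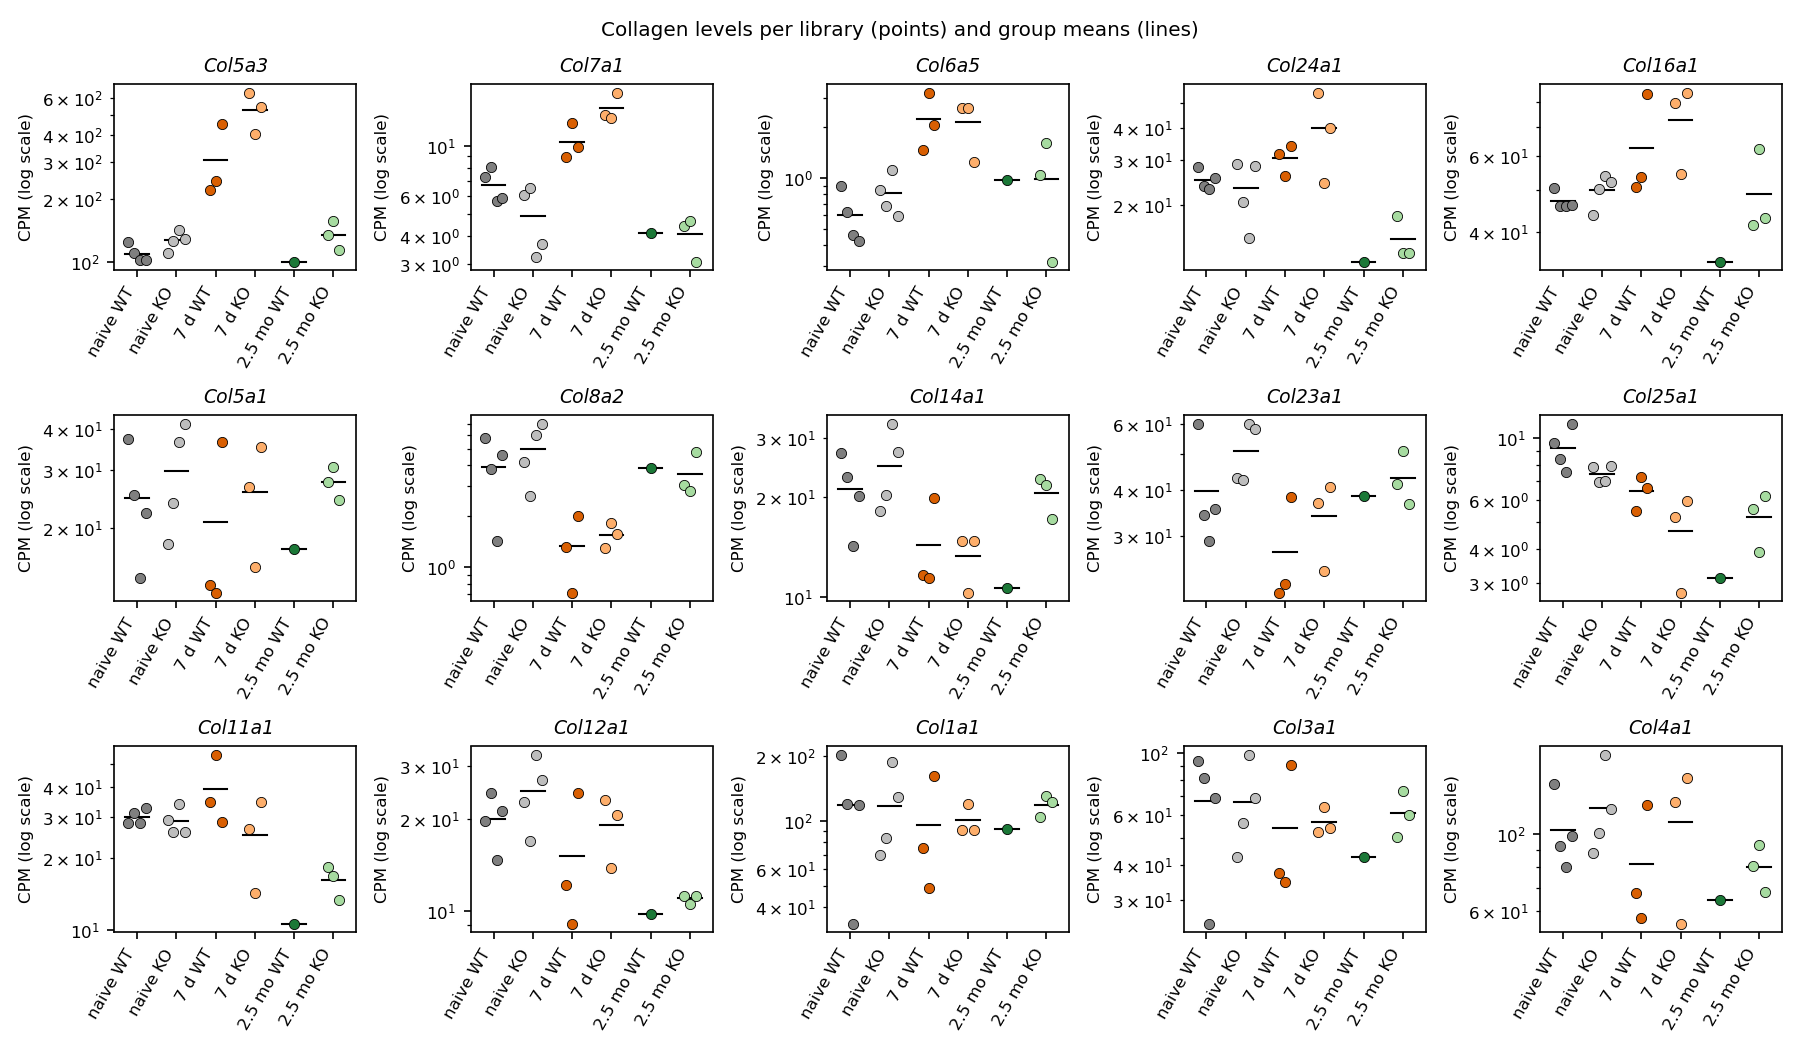
CPM on a log scale for 15 collagens, with each point a library and each line the mean of its group (naive WT and KO, 4 libraries each; 7 d WT and KO, 3 each; 2.5 months, 1 WT and 3 KO). Col5a3 at 7 d lies above every naive library, while Col1a1, Col3a1 and Col4a1 overlap between groups; the axes differ between panels.

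A further 4 collagens rose at 7 d over both genotypes. Col7a1, the chain of the anchoring fibrils that tie basement membranes to the tissue beneath, is known best from skin. Col7a1 stood at 7.28, 8.07, 5.74 and 5.90 CPM in naive WT, 6.09, 6.54, 3.24 and 3.69 in naive KO, 8.90, 12.6 and 9.85 at 7 d in WT, 13.7, 13.3 and 17.1 at 7 d in KO, 4.12 in the lone WT library at 2.5 months and 4.45, 4.67 and 3.09 at 2.5 months in KO. All 7 d libraries were higher than all naive libraries, and the 2.5-month libraries were in the lower part of the naive range or just under it. Col7a1 rose by 1.11 ± 0.17 (adjusted p = 0.000182) over both genotypes and by 1.58 ± 0.24 in KO (adjusted p = 0.000343), with 0.63 ± 0.24 in WT (adjusted p = 0.171). Col6a5 encodes a type VI chain. Col6a5 stood at 0.898, 0.632, 0.461 and 0.425 CPM in naive WT, 0.850, 0.686, 1.12 and 0.5996 in naive KO, 1.47, 3.20 and 2.08 at 7 d in WT, 2.59, 2.62 and 1.25 at 7 d in KO, 0.977 in the lone WT library at 2.5 months and 1.04, 1.62 and 0.320 at 2.5 months in KO. The levels were low, at most 45 counts, yet all 6 libraries at 7 d were above all 8 naive libraries. Col6a5 rose by 1.64 ± 0.31 over both genotypes (adjusted p = 0.00141), by 1.88 ± 0.45 in WT (adjusted p = 0.0252) and by 1.41 ± 0.44 in KO (adjusted p = 0.0411). In WT that call was lost without wt_44, wt_48, wt_67, wt_410_7d or wt_416_7d (adjusted p = 0.0641 to 0.107 over these). In KO it was lost without ko_35, ko_39, ko_95, wt_44, wt_48, ko_420__7d, ko_422_7d or ko_362_2_5_m, or with the compared groups alone, or without ko_39, ko_40 and ko_422_7d together (adjusted p = 0.0501 to 0.178 over these).

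Col24a1, a minor fibrillar collagen, and Col16a1, a FACIT collagen that sits on fibrils and near basement membranes, showed smaller rises. Col24a1 stood at 28.1, 23.6, 23.0 and 25.3 CPM in naive WT, 28.8, 20.4, 14.8 and 28.5 in naive KO, 31.7, 25.8 and 34.0 at 7 d in WT, 54.9, 24.4 and 40.1 at 7 d in KO, 11.9 in the lone WT library at 2.5 months and 18.04, 12.9 and 12.9 at 2.5 months in KO. In KO the naive and 7 d ranges overlapped, since ko_422_7d lay among the naive libraries. Col24a1 rose by 0.53 ± 0.17 over both genotypes (adjusted p = 0.0333) and by 0.78 ± 0.24 in KO (adjusted p = 0.0386), with 0.29 ± 0.24 in WT (adjusted p = 0.613). The call over both genotypes was lost without ko_39, wt_44, wt_48, wt_67, ko_420__7d, wt_409_7d or wt_416_7d (adjusted p = 0.0517 to 0.107 over these), and the call in KO without ko_39, ko_40, ko_420__7d or ko_426_7d, or with the compared groups alone (adjusted p = 0.0592 to 0.200 over these). Col16a1 stood at 50.5, 46.0, 45.8 and 46.2 CPM in naive WT, 43.7, 50.4, 53.9 and 52.1 in naive KO, 50.9, 53.6 and 83.8 at 7 d in WT, 79.6, 54.6 and 84.1 at 7 d in KO, 34.1 in the lone WT library at 2.5 months and 41.4, 62.2 and 43.0 at 2.5 months in KO. Each 7 d library was above each naive library of its own genotype, by a small margin. Col16a1 rose by 0.48 ± 0.13 (adjusted p = 0.0137) over both genotypes, and without wt_416_7d by 0.34 (adjusted p = 0.0506), which missed the threshold.

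The 250 bases before the annotated starts of the 5 collagens that rose are printed because these are the genes called higher at 7 d over both genotypes. They come from RefSeq on GRCm38.p6, 5′ to 3′ on the strand of the gene, and 35 of the 44 collagens matched a window. Capitals mark matches, on either strand, to AP-1 (TGANTCA), CRE (TGACGTCA), the CCAAT box (CCAAT), the GC box (GGGCGG), the TATA box (TATAAA) and the STAT motif (TTCNNNGAA).
Col5a3 (chr9:20815068-20815317, minus strand): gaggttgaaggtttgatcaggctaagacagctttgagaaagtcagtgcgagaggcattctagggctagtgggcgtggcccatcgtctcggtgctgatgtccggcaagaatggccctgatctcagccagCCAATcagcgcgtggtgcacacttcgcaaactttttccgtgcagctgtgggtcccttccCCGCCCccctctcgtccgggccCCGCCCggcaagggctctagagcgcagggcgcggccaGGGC
Col7a1 (chr9:108953336-108953585, plus strand): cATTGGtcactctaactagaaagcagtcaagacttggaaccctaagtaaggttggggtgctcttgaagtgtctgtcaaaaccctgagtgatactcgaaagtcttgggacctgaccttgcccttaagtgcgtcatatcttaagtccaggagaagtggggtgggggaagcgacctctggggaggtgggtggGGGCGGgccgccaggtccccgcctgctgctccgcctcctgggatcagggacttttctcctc
Col6a5 (chr9:105960644-105960893, minus strand): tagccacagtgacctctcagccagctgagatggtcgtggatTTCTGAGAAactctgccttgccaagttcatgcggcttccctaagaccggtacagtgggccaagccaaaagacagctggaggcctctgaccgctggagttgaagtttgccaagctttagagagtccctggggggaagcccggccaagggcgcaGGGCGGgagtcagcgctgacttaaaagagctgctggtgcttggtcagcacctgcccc
Col24a1 (chr3:145292222-145292471, plus strand): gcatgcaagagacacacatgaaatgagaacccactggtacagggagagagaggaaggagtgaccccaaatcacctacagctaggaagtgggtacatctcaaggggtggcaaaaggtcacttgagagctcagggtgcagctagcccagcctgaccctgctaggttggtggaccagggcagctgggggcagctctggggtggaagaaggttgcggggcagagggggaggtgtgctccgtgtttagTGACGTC
Col16a1 (chr4:130047590-130047839, plus strand): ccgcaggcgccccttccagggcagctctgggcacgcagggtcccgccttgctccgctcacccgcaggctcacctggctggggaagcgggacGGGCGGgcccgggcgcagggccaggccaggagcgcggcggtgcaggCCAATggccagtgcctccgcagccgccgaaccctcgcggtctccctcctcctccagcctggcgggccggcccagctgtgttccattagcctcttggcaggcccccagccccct
Motifs were searched in the window plus the 50 bases after the start, 300 bases in all, which are not printed. No AP-1 match was found in these 5 genes, and 1 of 35 collagens (Col6a1) had it, beside 7.81% of all 32851 windows. The 7 capitals that end the Col24a1 window are the first of a CRE match whose last base is the first base after the annotated start; it was the 1 CRE match among 35 collagens, and 1.79% of all windows hold that motif. A CCAAT box occurred in 13 of 35 collagens beside 37.4% of windows, and a GC box in 22 of 35 beside 35.7%. TATAAA occurred in 5 collagens beside 13.6%, and the STAT motif in 2, Col6a5 and Col28a1, beside 8.3% of windows. Matches of the GC box can overlap one another. The capitals GGGC that end the Col5a3 window begin a GC box match that runs past the annotated start. These are matches of letters and were not tested as binding sites.

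Another 4 collagens fell at 7 d over both genotypes. Col8a2 forms short-chain networks and is known from the basement membrane of the cornea. Col8a2 stood at 5.78, 3.79, 1.44 and 4.57 CPM in naive WT, 4.20, 2.65, 6.06 and 7.01 in naive KO, 1.32, 0.711 and 2.002 at 7 d in WT, 1.30, 1.83 and 1.56 at 7 d in KO, 3.84 in the lone WT library at 2.5 months and 3.06, 2.82 and 4.79 at 2.5 months in KO. Levels at 7 d were below all naive libraries in KO, whereas in WT the naive library wt_48 reached into the 7 d range. Col8a2 fell by 1.60 ± 0.32 over both genotypes (adjusted p = 0.00196) and by 1.67 ± 0.45 in KO (adjusted p = 0.0208), with -1.54 ± 0.45 in WT (adjusted p = 0.0772). The call in KO was lost without ko_95 or ko_420__7d (adjusted p = 0.0575 to 0.0681 over these), and a call in WT was made by DESeq2, at -1.53 ± 0.46 (adjusted p = 0.0211), and by edgeR without wt_48, at -1.81 ± 0.39 (adjusted p = 0.0181). Col14a1 is a FACIT collagen of the fibril surface. Col14a1 stood at 27.1, 22.9, 14.2 and 20.1 CPM in naive WT, 18.1, 20.3, 33.1 and 27.2 in naive KO, 11.6, 11.5 and 19.9 at 7 d in WT, 14.8, 10.3 and 14.7 at 7 d in KO, 10.7 in the lone WT library at 2.5 months and 22.7, 21.7 and 17.2 at 2.5 months in KO. All 7 d KO libraries were below all naive KO libraries, and in WT the ranges overlapped through wt_416_7d and wt_48. Col14a1 fell by 0.73 ± 0.18 over both genotypes (adjusted p = 0.00860) and by 0.89 ± 0.25 in KO (adjusted p = 0.0289), with -0.56 ± 0.25 in WT (adjusted p = 0.268). The KO call was lost without ko_40, ko_95 or ko_422_7d, or with the compared groups alone, or without ko_39, ko_40 and ko_422_7d together (adjusted p = 0.0639 to 0.236 over these).

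Both of the others that fell span the cell membrane. Col25a1 is made by neurons and is known in mouse for a role in motor innervation of muscle. Col25a1 stood at 9.57, 8.41, 7.54 and 11.2 CPM in naive WT, 7.84, 6.95, 6.96 and 7.93 in naive KO, 5.44, 7.25 and 6.62 at 7 d in WT, 5.19, 2.78 and 5.94 at 7 d in KO, 3.14 in the lone WT library at 2.5 months and 5.55, 3.90 and 6.18 at 2.5 months in KO. Every 7 d library was below every naive library of its own genotype, and Col25a1 fell by 0.59 ± 0.16 (adjusted p = 0.0152) over both. Col23a1 stood at 60.2, 34.3, 29.0 and 35.6 CPM in naive WT, 42.9, 42.4, 60.2 and 58.3 in naive KO, 21.1, 22.3 and 38.2 at 7 d in WT, 36.9, 24.1 and 40.6 at 7 d in KO, 38.5 in the lone WT library at 2.5 months and 41.4, 50.8 and 36.5 at 2.5 months in KO. For Col23a1 the KO ranges did not overlap but wt_416_7d lay among naive WT libraries. Col23a1 fell by 0.57 ± 0.18 over both genotypes (adjusted p = 0.0363), a call that was lost without ko_40, ko_95, wt_28, ko_422_7d, wt_409_7d or wt_410_7d, or with the compared groups alone, or without ko_39, ko_40 and ko_422_7d together (adjusted p = 0.0549 to 0.146 over these). The third tested membrane-spanning collagen, Col13a1, was -0.39 ± 0.31 (adjusted p = 0.390).

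Over both genotypes, 5 of 41 collagens were higher and 4 lower at 7 d, or 22.0%, and 21.1% of all genes tested were called, 10.8% higher and 10.3% lower. In WT the test called 2 higher and 0 lower, or 4.88% beside 3.18% of all genes (2.50% higher, 0.673% lower). In KO edgeR called 4 higher and 2 lower, or 14.6% beside 13.5% (7.61% higher, 5.89% lower). DESeq2 also called Col16a1 and Col25a1 in KO, with adjusted p = 0.0262 and 0.0323. The share of collagens called was thus close to that of all genes in each of these comparisons. The median collagen difference was -0.22 over both genotypes, -0.21 in WT and -0.20 in KO, beside 0.00 over all genes in each comparison. With the dependence on gene length removed, the median was -0.192 over both genotypes, -0.212 in WT and -0.0840 in KO. With that on GC content also removed, it was -0.184, -0.233 and -0.0450. By class over both genotypes, fibrillar genes had 2 of 11 called higher and 0 lower, basement membrane genes 0 of 5 called, FACIT genes 1 of 9 higher and 1 lower, beaded filament genes 1 of 5 higher and 0 lower, membrane-spanning genes 0 of 3 higher and 2 lower, and short-chain genes 0 of 3 higher and 1 lower, and the single anchoring fibril gene, Col7a1, was higher. All 5 tested basement membrane genes had estimates below 0, from -0.37 to -0.06, with unadjusted p under 0.05 for 0 of them, so that none passed. Both multiplexins, Col15a1 and Col18a1, had estimates above 0 and were not called. Naive and 7 d libraries share no sample between WT and KO, and 34 of 41 collagens (82.9%) had the same sign in both genotypes, beside 72.8% of all genes.

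**Figure D2:**
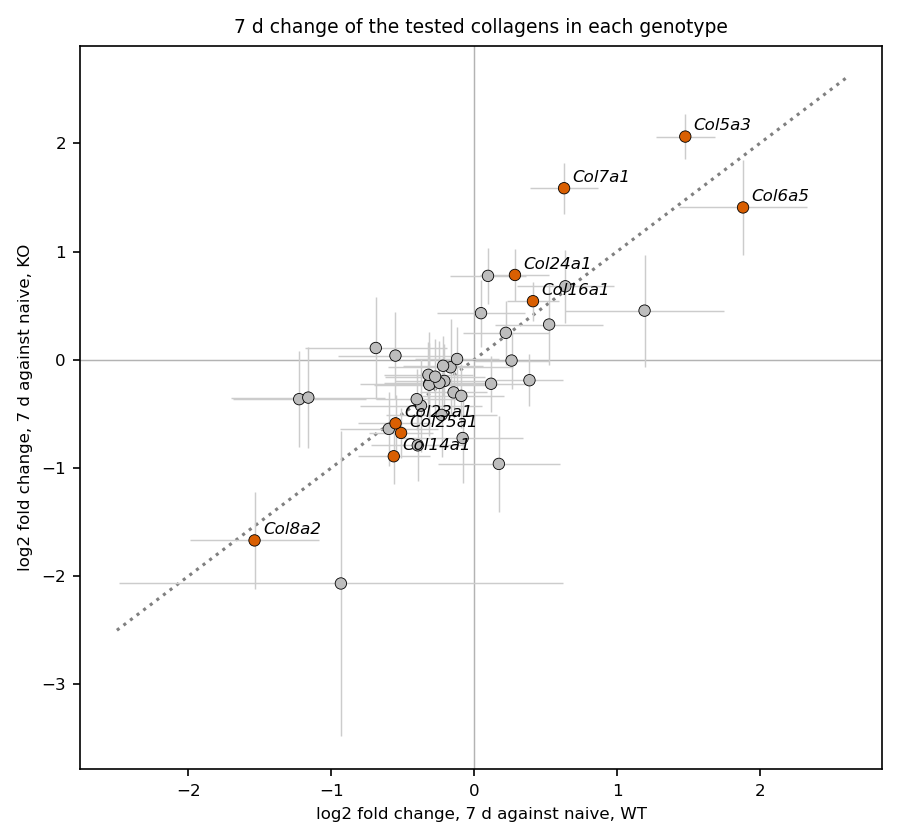
Log2 fold change at 7 d against naive in WT (horizontal axis) and KO (vertical axis) for the 41 tested collagens, with SE bars; orange marks the 9 called over both genotypes and the dotted line marks equal change. Col5a3, Col7a1 and Col24a1 lie above the line, but the interaction test called 0 collagens.

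The most abundant genes of 3 further classes were not called by edgeR's quasi-likelihood test in any comparison of the model with all 18 libraries. Col15a1 is a multiplexin of the zone between basement membranes and fibrils. Col15a1 stood at 57.5, 45.7, 32.9 and 39.9 CPM in naive WT, 28.7, 42.5, 89.1 and 43.3 in naive KO, 41.2, 38.5 and 74.4 at 7 d in WT, 55.1, 56.9 and 69.3 at 7 d in KO, 42.3 in the lone WT library at 2.5 months and 40.2, 45.6 and 43.6 at 2.5 months in KO. Ranges of Col15a1 overlapped between naive and 7 d in both genotypes, and the 7 d estimate over both was 0.24 ± 0.21 (adjusted p = 0.459). Col6a1 is a core chain of the type VI filaments around cells. Col6a1 stood at 23.7, 28.4, 6.87 and 24.7 CPM in naive WT, 17.6, 13.2, 29.8 and 27.7 in naive KO, 11.3, 8.96 and 28.3 at 7 d in WT, 14.4, 19.8 and 15.2 at 7 d in KO, 12.3 in the lone WT library at 2.5 months and 20.01, 13.7 and 18.8 at 2.5 months in KO. Its naive and 7 d ranges overlapped too, at -0.40 ± 0.30 (adjusted p = 0.375). Col8a1 is the partner of Col8a2 in short-chain networks. Col8a1 stood at 6.63, 11.1, 5.85 and 8.82 CPM in naive WT, 6.38, 7.41, 14.0 and 10.1 in naive KO, 5.73, 4.05 and 10.4 at 7 d in WT, 10.9, 9.37 and 5.16 at 7 d in KO, 2.58 in the lone WT library at 2.5 months and 5.84, 3.72 and 6.50 at 2.5 months in KO. Its naive and 7 d ranges overlapped in both genotypes. Its estimate at 7 d was -0.21 ± 0.25 (adjusted p = 0.572), where Col8a2 fell. In the lone WT library at 2.5 months against naive WT, DESeq2 called Col8a1 lower, at -1.62 ± 0.56 (adjusted p = 0.0276), as did edgeR with the compared groups alone, at -1.63 ± 0.42 (adjusted p = 0.0206).

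The other collagens had these ranges over all 18 libraries and these estimates at 7 d over both genotypes, none of them called. Col11a2, a type XI chain, ran from 3.07 to 9.31 CPM with 0.24 ± 0.22, and Col2a1, the main cartilage collagen, from 0.923 to 7.34 CPM with -0.40 ± 0.30. The type IV gene Col4a2 ran from 37.5 to 94.4 CPM with -0.14 ± 0.20. Col4a3, Col4a4 and Col4a5, known together from the basement membrane of the kidney, ran from 0.318 to 3.60, 1.88 to 4.78 and 0.925 to 3.62 CPM with -0.29 ± 0.34, -0.06 ± 0.21 and -0.37 ± 0.28. These type IV estimates were small beside that of Col5a3. Of the FACIT group, the type IX chains Col9a1, Col9a2 and Col9a3 ran from 0 to 0.692, 3.90 to 17.3 and 0.640 to 3.54 CPM with -1.500 ± 1.06, -0.59 ± 0.23 and -0.79 ± 0.32, while Col20a1 and Col22a1 ran from 0.318 to 2.03 and 0.154 to 1.34 CPM with -0.12 ± 0.31 and -0.76 ± 0.36. Of type VI, Col6a2 and Col6a3 ran from 13.5 to 38.1 and 6.83 to 27.3 CPM with -0.05 ± 0.18 and 0.43 ± 0.26. The multiplexin Col18a1 ran from 20.2 to 45.3 CPM with 0.13 ± 0.19, and Col26a1 from 2.50 to 8.53 CPM with -0.20 ± 0.24.

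Abundant type I and type III genes were not called at 7 d. Col1a1 was -0.27 ± 0.34 (adjusted p = 0.617), Col3a1 was -0.27 ± 0.28 (adjusted p = 0.517) and Col1a2 was -0.62 ± 0.24 (adjusted p = 0.0789) over both genotypes. Col1a2 was called lower without wt_48 at -0.74 ± 0.22 (adjusted p = 0.0248) or without wt_416_7d at -0.87 ± 0.23 (adjusted p = 0.0167). Col27a1, a fibrillar collagen known from cartilage, was 0.66 ± 0.24 (adjusted p = 0.0606), and DESeq2 called it at 0.67 ± 0.25 (adjusted p = 0.0302). So did edgeR without ko_40, wt_28, ko_422_7d, wt_409_7d or wt_410_7d, or without ko_39, ko_40 and ko_422_7d together. It was also called by edgeR with either length correction (adjusted p = 0.0244 to 0.0485 over all these edgeR settings). The make-up of collagen transcripts differed with time. Col5a3 made up 9.06 to 14.2% of summed collagen CPM per kb in naive WT, 9.13 to 12.7% in naive KO, 24.8 to 28.1% at 7 d in WT and 33.3 to 38.9% at 7 d in KO. It was the highest collagen per kb at 7 d in both genotypes by both length measures. Fibrillar genes together went from 38.9 to 48.6% in naive WT (mean 44.3%) to 52.2 to 55.1% at 7 d in WT (mean 53.2%). The mean share of Col5a3 went from 10.9 to 26.6%, so the fibrillar genes other than Col5a3 made up a smaller share at 7 d. The share of basement membrane genes was 11.0 to 12.5% at 7 d in WT against 14.2 to 17.9% in naive WT. Shares sum to a fixed total, so a rise of Col5a3 lowers the others.

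**Figure D3:**
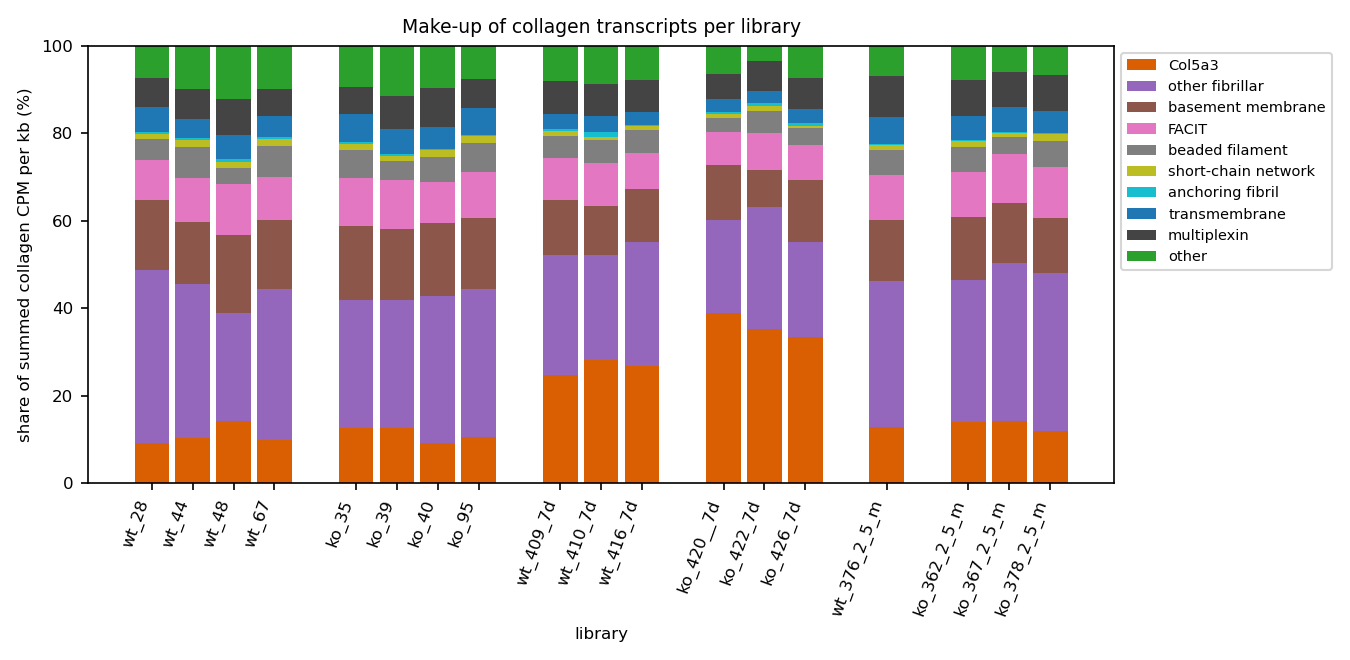
Share of summed collagen CPM per kb in each of the 18 libraries, with Col5a3 apart from the other fibrillar genes and the remaining classes stacked above. Col5a3 makes up 24.8 to 28.1% in 7 d WT and 33.3 to 38.9% in 7 d KO libraries, and at most 14.2% in the others.

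At 2.5 months in KO, 3 of the collagens that rose at 7 d were lower than at 7 d. Against 7 d, Col5a3 fell by 1.97 ± 0.23 (adjusted p = 0.000269), Col7a1 by 1.85 ± 0.26 (adjusted p = 0.000688) and Col24a1 by 1.45 ± 0.27 (adjusted p = 0.00384); these were 3 of 41 collagens called, or 7.32%, beside 6.48% of all genes, 2.14% higher and 4.33% lower. All 3 held in all 26 alternatives. Against naive KO, Col5a3 differed by 0.09 ± 0.21 (adjusted p = 0.786) Col7a1 by -0.27 ± 0.25 (adjusted p = 0.469) and Col24a1 by -0.66 ± 0.25 (adjusted p = 0.0799). Without ko_422_7d, 9 collagens were called lower than at 7 d, the added ones being Col11a1, Col12a1, Col16a1, Col6a3, Col28a1 and Col4a3, from -0.73 to -1.46. Without wt_416_7d, 6 were called, with Col5a2, Col12a1 and Col16a1 added at -0.68 ± 0.20, -0.81 ± 0.24 and -0.58 ± 0.16. The share of all genes called without these libraries is not given here, so the added calls may not be particular to collagens. Naive and 7 d KO libraries are each used in more than 1 of these comparisons.

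Against naive KO, 3 collagens were lower at 2.5 months and 0 higher, or 7.32% of those tested beside 11.6% of all genes, 6.99% higher and 4.57% lower. Col11a1 stood at 28.2, 31.1, 28.3 and 32.7 CPM in naive WT, 29.0, 26.0, 33.9 and 25.9 in naive KO, 34.6, 54.8 and 28.5 at 7 d in WT, 26.5, 14.3 and 34.6 at 7 d in KO, 10.6 in the lone WT library at 2.5 months and 18.3, 16.9 and 13.3 at 2.5 months in KO. The 2.5-month libraries were the lowest, apart from ko_422_7d. Col12a1 stood at 19.8, 24.3, 14.7 and 21.4 CPM in naive WT, 22.7, 16.9, 32.5 and 27.0 in naive KO, 12.2, 9.10 and 24.3 at 7 d in WT, 23.1, 13.9 and 20.6 at 7 d in KO, 9.77 in the lone WT library at 2.5 months and 11.2, 10.5 and 11.2 at 2.5 months in KO. For Col12a1, a FACIT collagen of fibrils under tension, the 2.5-month KO libraries were close together and below all naive KO libraries. Col19a1 stood at 2.49, 2.58, 2.56 and 3.24 CPM in naive WT, 2.64, 2.93, 2.02 and 2.31 in naive KO, 2.72, 2.35 and 2.31 at 7 d in WT, 2.16, 1.67 and 2.19 at 7 d in KO, 2.09 in the lone WT library at 2.5 months and 1.33, 0.959 and 1.86 at 2.5 months in KO. Col19a1, a FACIT collagen also known in mouse brain from the formation of synapses, was low throughout, with at most 64 counts. Col12a1 fell by 1.17 ± 0.29 (adjusted p = 0.0222), Col11a1 by 0.83 ± 0.24 (adjusted p = 0.0390) and Col19a1 by 0.83 ± 0.24 (adjusted p = 0.0374). All 3 calls were lost once each library's dependence on gene length was removed, where Col12a1 was -0.81 ± 0.25 (adjusted p = 0.0548), Col11a1 -0.51 ± 0.20 (adjusted p = 0.115) and Col19a1 -0.67 ± 0.25 (adjusted p = 0.0978). The collagen median went from -0.303 to -0.131 with that correction. The calls also depended on single libraries or settings. Col12a1 was lost without ko_35, ko_367_2_5_m or ko_378_2_5_m (adjusted p = 0.0508 to 0.0985 over these). Col11a1 was lost without ko_35, ko_39, ko_40, ko_95, wt_67, ko_362_2_5_m, ko_367_2_5_m or ko_378_2_5_m (adjusted p = 0.0501 to 0.128 over these). Col19a1 was lost without ko_35, ko_39, ko_95, ko_362_2_5_m or ko_367_2_5_m, or with the compared groups alone, or without ko_39, ko_40 and ko_422_7d together (adjusted p = 0.0549 to 0.178 over these). These ranges include the corrections for length. Without ko_422_7d, 6 collagens were called lower, with Col24a1 at -0.66 ± 0.21, Col25a1 at -0.51 ± 0.18 and Col28a1 at -0.70 ± 0.21 added. The share of all genes called without that library is not given here.

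**Figure D4:**
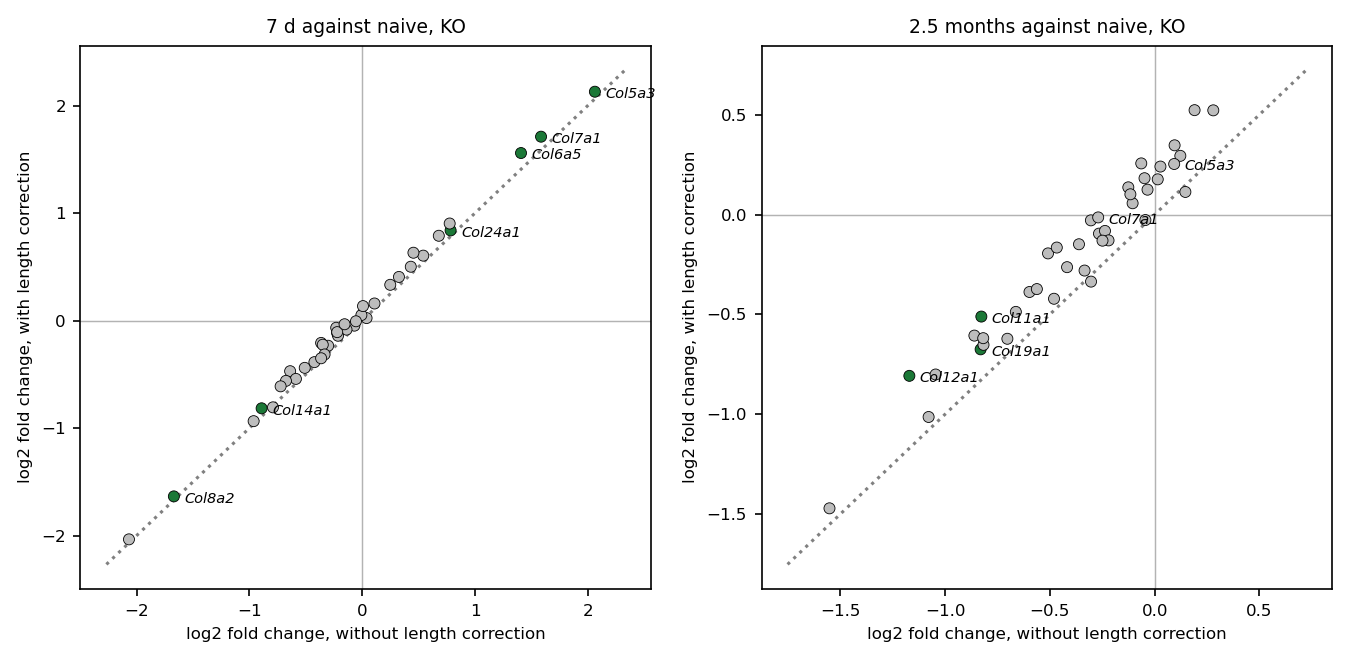
Log2 fold changes of the 41 tested collagens in KO without (horizontal axis) and with (vertical axis) removal of each library's dependence on gene length, at 7 d (left) and 2.5 months (right) against naive; green marks calls without the correction and the dotted line equality. At 2.5 months most points lie above the line, the median moving from -0.303 to -0.131; at 7 d many also lie slightly above it, the median moving from -0.196 to -0.0840.

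At 2.5 months 1 WT library stood beside 3 KO libraries, and its spread was taken from the other groups. KO against that library called 0 of 41 collagens by edgeR or DESeq2 (background 0.0473%). Estimates were 0.94 ± 0.40 for Col14a1 and -1.63 ± 0.69 for Col6a4, and Col10a1 had 0 counts in the WT library. Against naive WT, the lone library had 1 collagen called higher and 3 lower, or 9.76% beside 13.0% of all genes, 8.71% higher and 4.30% lower. Col6a4 stood at 0.199, 0.340, 0.359 and 0.159 CPM in naive WT, 0.425, 0.686, 0.585 and 0.323 in naive KO, 0.441, 0.640 and 0.770 at 7 d in WT, 0.505, 1.43 and 0.156 at 7 d in KO, 1.61 in the lone WT library at 2.5 months and 0.520, 0.599 and 0.426 at 2.5 months in KO. Col6a4, a type VI chain, was higher in the lone library than in any other library, with 23 counts there, and rose by 2.56 ± 0.67 (adjusted p = 0.0203). Col11a1 fell by 1.502 ± 0.40 (adjusted p = 0.0221) and Col25a1 by 1.55 ± 0.38 (adjusted p = 0.0152), and both were lower in this library than in every naive library. Col10a1 stood at 1.30, 0.875, 1.33 and 0.797 CPM in naive WT, 0.614, 0.686, 1.22 and 0.692 in naive KO, 0.588, 1.21 and 0.385 at 7 d in WT, 0.505, 0.953 and 1.02 at 7 d in KO, 0 in the lone WT library at 2.5 months and 0.636, 0.719 and 0.586 at 2.5 months in KO. Col10a1, known from cartilage that turns to bone, had 0 counts in the lone library and was at least 5.14-fold lower there than the naive WT mean of 1.08 CPM, taking 3 counts, or 0.209 CPM, as the floor (adjusted p = 0.00773). These 4 calls rest on 1 library that had a length slope of -0.553.

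**Figure D5:**
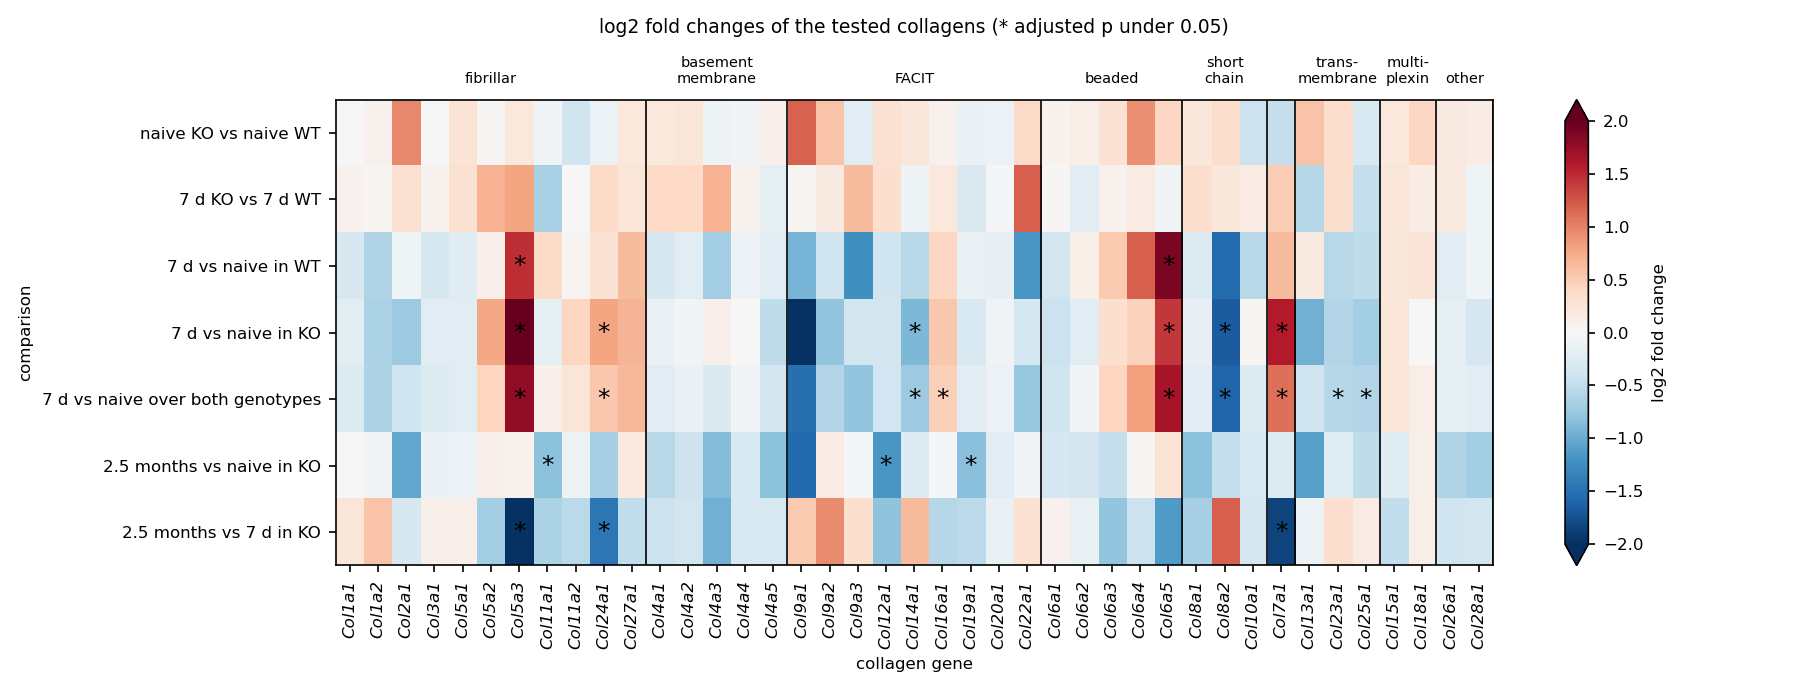
Log2 fold changes of the 41 tested collagens by class (columns) in 7 comparisons (rows), from blue (lower) to red (higher) with colours ending at -2 and 2; asterisks mark an adjusted p under 0.05. The rows of KO against WT hold no asterisk, and the 7 d rows hold 2 in WT, 6 in KO and 9 over both genotypes.

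Genes that process collagen chains were examined beside the collagens. The counts of this and the other lists stand beside the 21.1% of all genes called over both genotypes, 10.8% higher and 10.3% lower, and 13.5% in KO. Of 21 folding and modification genes, 3 rose and 2 fell in KO at 7 d and 3 rose and 2 fell over both genotypes. Plod3, which hydroxylates and glycosylates collagen lysines, rose by 0.59 ± 0.08 (adjusted p = 4.95e-05), P4ha2, a subunit of prolyl hydroxylase, by 0.57 ± 0.10 (adjusted p = 0.00101) and Mia3, which loads procollagen for export, by 0.46 ± 0.10 (adjusted p = 0.00511). Of 13 trimming and cross-linking genes, 2 rose and 3 fell. Loxl2, which cross-links collagen in the matrix, rose by 3.03 ± 0.24 (adjusted p = 3.48e-07), and Bmp1, which trims the ends of procollagens, by 1.07 ± 0.18 (adjusted p = 0.000515), while Tll1, a relative of Bmp1, fell by 1.16 ± 0.28 (adjusted p = 0.00734) and Adamts2 by 0.50 ± 0.12 (adjusted p = 0.00733). Loxl2 was also higher at 2.5 months in KO, at 1.51 ± 0.34 against naive (adjusted p = 0.0179). Median differences over both genotypes were 0.04 for folding and -0.10 for trimming genes, beside 0.00 over all genes.

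Among 14 collagen breakdown genes 2 rose and 2 fell over both genotypes at 7 d, near the 10.8% and 10.3% of all genes. Mmp16, a membrane metalloproteinase, rose by 2.56 ± 0.22 (adjusted p = 7.27e-07) and Timp1, an inhibitor of metalloproteinases, by 1.91 ± 0.24 (adjusted p = 2.74e-05). Mmp9 fell by 3.09 ± 0.52 (adjusted p = 0.000651) and Mmp8 by 2.69 ± 0.58 (adjusted p = 0.00425); both are known as neutrophil products. Of 8 collagen receptors tested, 3 rose and 0 fell: Itgb1, the beta chain of the collagen-binding integrins, at 0.31 ± 0.08 (adjusted p = 0.0117), Ddr2, a receptor kinase for fibrillar collagen, at 0.68 ± 0.18 (adjusted p = 0.0132), and Lair1, an inhibitory receptor of immune cells, at 0.90 ± 0.23 (adjusted p = 0.0119). Of 17 other basement membrane genes, 3 laminin chains rose, Lamb3 by 2.79 ± 0.30 (adjusted p = 7.17e-06), Lama5 by 0.86 ± 0.24 (adjusted p = 0.0177) and Lama1 by 0.44 ± 0.14 (adjusted p = 0.0310), while 0 fell. The small leucine-rich proteoglycans, which bind collagen fibrils, had 0 of 10 higher and 3 lower, with Fmod down by 2.16 ± 0.53 (adjusted p = 0.00849).

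The other matrix genes, 19 in number, had 1 higher and 4 lower at 7 d over both genotypes, among them Thbs1, which fell by 1.61 ± 0.32 (adjusted p = 0.00201), and Fn1, the fibronectin gene, which fell by 1.27 ± 0.38 (adjusted p = 0.0281). Of 21 genes of TGF-beta signalling, the pathway best known for driving collagen genes, 2 rose and 2 fell, and the median difference was -0.10. Thbs1, named above, fell, as did Ltbp3, a relative of Ltbp1, by 0.39 ± 0.09 (adjusted p = 0.00631). Ltbp1, which stores latent TGF-beta, rose by 1.04 ± 0.26 (adjusted p = 0.00870).

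Marker genes of cell types that could be present were counted in the same way at 7 d, beside 10.8% of all genes higher and 10.3% lower. Over both genotypes 0 of 15 fibroblast markers rose and 3 fell, 0 of 17 meningeal and barrier fibroblast markers rose and 6 fell, 0 of 12 endothelial markers rose and 7 fell, 0 of 12 mural markers rose and 6 fell, 0 of 12 Schwann cell markers rose and 5 fell, and 9 of 12 macrophage markers rose and 0 fell. The Schwann cell sum was 5046 to 12225 CPM in naive WT, 3366 to 6075 at 7 d in WT, 5947 to 10666 in naive KO and 3818 to 5480.1 at 7 d in KO. The fibroblast sum was 1042 to 2371, 1216 to 2953, 914 to 2800.0 and 1509 to 2391 CPM in the same groups, and 2602 to 4019 at 2.5 months in KO. The endothelial sum was 178 to 223, 90.3 to 178, 208 to 309 and 119 to 179 CPM. The macrophage sum was 104 to 286, 170.2 to 377, 88.6 to 298 and 205 to 571 CPM. No marker of these 6 lists was at 0 in a whole group. The adipocyte sum was 7.02 to 25.8, 30.4 to 75.0, 7.98 to 18.7 and 59.7 to 100.3 CPM, higher in every 7 d library than in every naive library. Its 7 tested markers were split, however, with 3 estimates above 0 and 4 below over both genotypes. Their median was -0.391 over both genotypes, -1.703 in WT and 0.921 in KO. The part of any cell type in the collagen differences was not tested. Of satellite glia markers 1 of 9 rose and 1 fell, of perineurial markers 1 of 8 rose and 0 fell, and of sensory neuron markers 1 of 12 rose and 0 fell. Bone and cartilage markers had 2 of 11 higher and 2 lower, adipocyte markers 3 of 7 higher, red blood cell markers 3 of 7 lower and skeletal muscle markers 5 of 12 lower; in these last lists 3 bone and cartilage markers and 3 muscle markers were at 0 in the lone WT library at 2.5 months.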

How the data were processed

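RNA was sequenced from polyA-selected libraries of mouse dorsal root ganglia. The authors deposited raw counts of reads for 21288 genes in 18 libraries, as whole numbers; a table of normalized values was not used. The submitters' processing notes name DESeq2 1.10.1, HTSeq 0.6.1p1, STAR 2.4.2a0, bcl2fastq 2.17.1.14 and cutadapt, with GRCm38 as the build. Which annotation and strand option were used is not given in the sources used here. Groups came from the labels. Symbols, positions and lengths came from GENCODE M21 on GRCm38. Depth differed with time, which sets the counting error of low genes.

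Counts were fitted in edgeR 4.0.16 (R 4.3.3) by the robust quasi-likelihood F test. One model held the 6 group means, leaving 12 residual degrees of freedom, after TMM scaling and a filterByExpr filter (10 counts, total 15) that left 19010 genes. Calls are at an adjusted p under 0.05 (Benjamini-Hochberg, over those genes), and SEs were derived from F. CPM used the scaled library size, and CPM per kb the merged exon length. The steps were tested on simulated data. Alternatives were DESeq2 size factors, upper-quartile scaling, DESeq2 1.42.0, no filter, the compared groups alone and each library left out. Others left out ko_39, ko_40 and ko_422_7d together, or removed a linear trend per library on the logarithm of gene length, alone or with GC content. Values in every library were given for collagens called in any comparison, Col1a1, Col3a1, Col4a1 and the most abundant gene of each class. These were 21 in all, Col28a1 among them, 1 more than the limit of 20 set for such full values. Col5a1 and Col5a2 were shown in full too, chosen as partners of Col5a3 after their values were seen. From each other list up to 4 called members with the smallest adjusted p could be named. The value of 1 gene of these lists is not reported here. The members, classes and lists were chosen with earlier results of these data known.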

Additional observations from a re-analysis of the deposited data

Results flagged for a closer look

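In groups of 4 libraries, a library was flagged where its gap to the nearest other library was a large part of the range of its group. Of 82 collagen and group pairs, 3 were flagged, and chance flags about 5% of them. Col10a1 was 1.22 CPM in the naive KO library ko_40, against 0.614 to 0.692 CPM in the other 3. Col16a1 was 50.5 CPM in the naive WT library wt_28, against 45.8 to 46.2 CPM. Col19a1 was 3.24 CPM in the naive WT library wt_67, against 2.49 to 2.58 CPM.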

How the results depend on the processing

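Of the 27 calls of a collagen in a comparison, 16 held in every alternative, 11 were lost in at least 1 and 0 reversed, over 26 alternatives (25 for comparisons that need the lone WT library). With either length correction, 0 collagens were called at 2.5 months against naive KO, against 3 without. Without ko_39, ko_40 and ko_422_7d, 9 were called lower at 2.5 months than at 7 d in KO, against 3. With the compared groups alone, 10 were called in the lone WT library against naive WT, against 4; the cause was not tested. Leaving out each library in turn gave these counts of collagens called: 0 to 0 for KO against WT in naive mice, 0 to 1 at 7 d, 0 to 1 for their mean and 0 to 0 for the interaction; 1 to 2 at 7 d in WT, 3 to 8 in KO and 8 to 10 over both; 0 to 6 at 2.5 months against naive KO, 3 to 9 against 7 d, 0 to 0 for KO against the lone WT library and 4 to 5 for that library against naive WT. Counts under the alternatives are not set here beside the share of all genes called in the same setting. A change in them may therefore not be particular to collagens. No paired analysis was possible because the library numbers are not shared between groups. Depth was lowest at 7 d, and genes of a few counts such as Col9a1 and Col6a4 have wide errors.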
